A study of Homo sapiens with 18 samples.

Results

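The effect of the lower cocaine dose was measured 24 h after the exposure, in 3 arrays of cells given 1 μM cocaine and 3 arrays of cells given 0 μM, out of 18 arrays in the series. The cells were SH-SY5Y, a human neuroblastoma line, differentiated for 7 days in 10 μM retinoic acid and then kept 24 h without it. Both groups received this differentiation, and cocaine was present for 30 min only. Each array carried RNA pooled from 3 dishes, and 9 dishes were grown per condition. Arrays at 5 μM from the same time entered the fit, and arrays at 1 and 0 μM from 6 h after the exposure were used to ask which differences seen at 6 h were still present. All replicates came from 1 cell line, so p-values measure the spread between pools of dishes and not between individuals. Where the replicate number was fitted as a block, that spread leaves out what same-numbered arrays share. Of the 54675 probe sets on the array, 27304 had a mean signal over the 9 arrays of 24 h above log2(40), which is 5.32 on the log2 scale, and these were compared. They comprised 23209 probe sets with 1 gene symbol, which stood for 12719 genes.

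Cocaine blocks the transporters that clear dopamine, noradrenaline and serotonin from the synapse, and repeated or single exposures are known to alter transcription in neurons through immediate early genes and chromatin enzymes. Retinoic acid, used here to differentiate the cells, binds receptors of the RAR family, which sit on pairs of short DNA half-sites and turn on a set of target genes, among them the enzymes that degrade retinoic acid itself. The set depends on the ligand, and withdrawal of retinoic acid lets it decline. SH-SY5Y cells keep dividing unless differentiation stops them, which makes cell cycle genes a further readout of the state of a culture.

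The retinoic acid targets CYP26A1 and CYP26B1 had the largest log2 fold changes in size, at -1.62 and -1.01. For that reason receptor sites in promoters of the retinoic acid genes are shown. Both values were smaller in size without the third untreated array, and RARB had -0.41. As a list the retinoic acid genes had a median of -0.09, smaller in size than those of the clock, mitotic and G1/S lists. Half-sites spelled AGGTCA, those spelled GGGTCA, and the forms found below (AGTTCA as well as the spelling GGTTCA), repeated in the same orientation with 5 bases between them, were searched on both strands in windows of 250 bases before to 50 bases after each RefSeq gene start of GRCh38.p14. Such a repeat was found in 31 of 35116 windows (0.0883%), which belong to 29 of 27305 genes. Of the 22 measured retinoic acid genes that have a window, 2 had a repeat, CYP26A1 and RARB. Both repeats use only the spellings AGTTCA and GGTTCA, which the search included as the forms found there. The count of 2 is therefore no test of the list. The 47 bases around each repeat are printed with the half-sites in capitals and 15 bases on either side. A match is a description of the letters and not evidence of binding.
CYP26A1, chr10:93073788-93073834, minus strand, bases -90 to -74 from the start: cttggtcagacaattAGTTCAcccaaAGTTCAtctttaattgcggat
RARB, chr3:25428195-25428241, plus strand, bases -53 to -37 from the start: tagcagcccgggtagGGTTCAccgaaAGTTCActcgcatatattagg

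Listed markers of both the adrenergic and the mesenchymal state of neuroblastoma were above the signal minimum. Of 20 adrenergic markers, 17 were above the signal minimum, and GATA3, a transcription factor of sympathetic neurons, averaged 12.89 at 1 μM and 12.89 at 0 μM on the log2 scale. ISL1, which specifies the same lineage, averaged 12.66 at 1 μM and 12.64 at 0 μM. TH, tyrosine hydroxylase, the enzyme that makes the precursor of dopamine, was below the signal minimum and gave no value. Of 20 markers of the substrate-adherent, mesenchymal state of neuroblastoma, 14 were measured, and VIM among them was about as bright as GATA3 at 1 μM. No marker of either list had an unadjusted p under 0.05. Among Schwann and glial markers 3 of 10 were measured and none had an unadjusted p under 0.05, and of 12 fibroblast, endothelial and blood cell markers 5 were measured, with 1 (HBB, a globin) at a log2 fold change of -0.12. PECAM1, VWF, PTPRC and CD3E were below the signal minimum. In bulk RNA of this kind, fewer cells of a type and less RNA per cell cannot be told apart. Array measures did not separate the doses: the ratio of 3' to 5' probe sets of ACTB differed by -0.07 (exact permutation test, two-sided p = 0.5) and that of GAPDH by -0.02 (p = 0.3), with 0.1 as the smallest p that 3 arrays against 3 allow.

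After 24 h, 0 of 27304 probe sets (0%) passed an adjusted p under 0.10 between 1 and 0 μM cocaine, in either direction. The fit was made with limma, with dose as the group and the replicate number as a block, and the smallest adjusted p was 0.544. Without the block limma also called 0 probe sets, and the smallest adjusted p was 0.713. At an unadjusted p under 0.05 the blocked fit had 1565 probe sets above (5.73%) and 728 below (2.67%) the untreated arrays, and the fit without the block had 542 above and 396 below. The split turned to 774 above and 1459 below when each array was centred on its median, so the excess of probe sets above the untreated arrays depends on the scaling. All 3 arrays at 1 μM lay above all 3 at 0 μM for 1176 probe sets (4.31%) and below them for 789 (2.89%). All 3 replicate pairs pointed upwards for 5647 probe sets (20.7%) and downwards for 2978 (10.9%).

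Differences were small across the array. Log2 fold changes ran from -1.62 to 0.78, with a median of 0.02 over probe sets; 19 probe sets exceeded 0.5 in size and 2 exceeded 1. The 95% confidence interval had a median half-width of 0.15, and it lay within plus or minus 0.5 for 95.9% of probe sets and within plus or minus 1 for 99.9%. A change of 2-fold in either direction therefore lay outside the interval for nearly all probe sets measured. The comparison of 5 with 0 μM at the same time, which shares the untreated arrays, called 2 probe sets in limma.

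The retinoic acid response lay below the untreated level. Of 45 listed genes 29 were measured, 22 of them had a log2 fold change below 0, and the median was -0.09, against 0.01 over all genes. An unadjusted p under 0.05 was reached by 8 of the 29 (27.6%), all below the untreated level, where 2.69% of all genes were below at that p. None had an adjusted p under 0.10. The medians of the 3 replicate pairs were 0.01, -0.13 and -0.18, so the first pair was near 0 and the second and the third were below it.

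CYP26A1, the cytochrome P450 that breaks down retinoic acid and whose promoter repeat is printed above, had log2 signals of 5.33, 5.12 and 5.70 at 1 μM and of 5.40, 6.04 and 9.55 at 0 μM. The arrays at 1 μM sat near the signal minimum, and the third untreated array stood far above all others. Its log2 fold change was -1.62 ± 0.63 (SE), and -0.65 without the third untreated array. CYP26B1, a second enzyme of the same function, read 8.45, 8.42 and 8.49 at 1 μM and 8.35, 9.02 and 11.03 at 0 μM, again with an even level at 1 μM and the third untreated array far above. Its log2 fold change was -1.01 ± 0.45, and -0.30 without the third untreated array, and the first untreated array was below every array at 1 μM. DHRS3, which reduces retinal and so limits retinoic acid synthesis, read 7.92, 8.01 and 8.84 at 1 μM and 7.96, 9.01 and 10.23 at 0 μM, a log2 fold change of -0.81 ± 0.22 with overlapping groups.

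RARB, a receptor that retinoic acid induces and whose promoter carries the second printed repeat, read 8.84, 8.80 and 8.98 at 1 μM. At 0 μM it read 8.92, 9.26 and 9.66. The pairs differed by -0.09, -0.46 and -0.68, and the fitted log2 fold change was -0.41 ± 0.10. The groups overlapped through the first untreated array. For TGM2, a transglutaminase, 7.64, 7.61 and 7.36 at 1 μM lay below 7.82, 7.93 and 7.85 at 0 μM without overlap, for a log2 fold change of -0.33. PLAT, tissue plasminogen activator, read 7.52, 7.64 and 8.16 at 1 μM and 7.79, 7.84 and 8.47 at 0 μM, with each pair below 0 and a log2 fold change of -0.26. RET, the receptor tyrosine kinase that retinoic acid raises in neuroblastoma lines, was bright on every array, at 13.00, 13.00 and 12.93 at 1 μM and 12.98, 13.14 and 13.18 at 0 μM, a log2 fold change of -0.13. Of members picked after their values were seen, the carrier protein CRABP2 had -0.45, and the receptors RARA and RARG had -0.34 and -0.19.

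**Figure D1:**
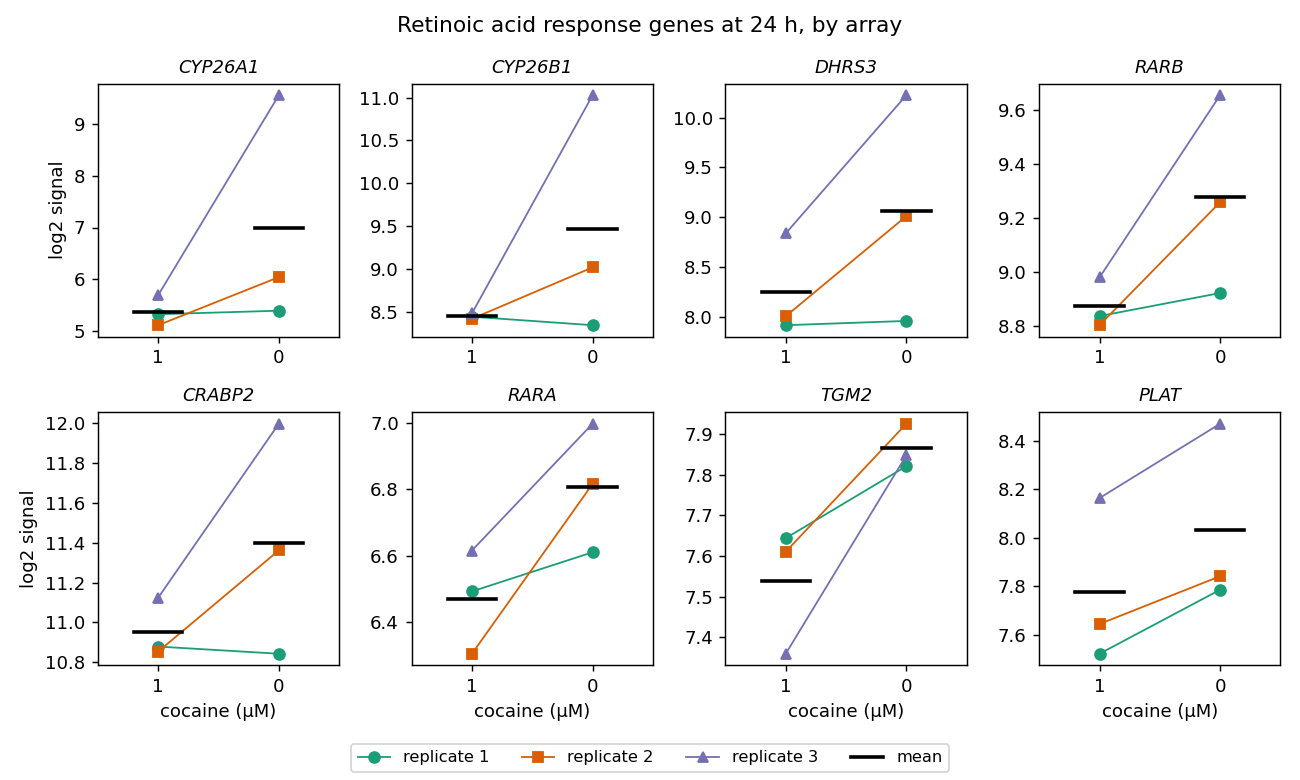
Log2 RMA signal of retinoic acid genes on each array of 24 h, with 1 μM left of 0 μM, lines joining arrays of the same replicate number and bars at the group means. For CYP26A1 the untreated arrays spread over 5.40, 6.04 and 9.55, while the arrays at 1 μM stay between 5.12 and 5.70.

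The spread lay among the untreated arrays. Centred on each gene's mean, the list's median per array was -0.06, -0.07 and -0.05 at 1 μM and -0.06, 0.04 and 0.14 at 0 μM. Without the third untreated array 5 members were below at an unadjusted p under 0.05 and the median was -0.07; leaving out each of the 6 arrays in turn gave 5 to 11 members, and the fit without the block gave 3. The same list had a median of -0.08 at 5 μM against those untreated arrays, and of -0.20 at 1 μM after 6 h. There, 6 of 26 members were called in limma with the block, all lower, beside 6.73% of all probe sets. Without the block none was called at 6 h. At 6 h the first untreated array was the low one for CYP26B1, with 8.35, 8.54 and 8.63 at 1 μM and 8.48, 12.33 and 12.18 at 0 μM.

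No single gene passed the threshold, so the genes with the smallest p are given as values. Above the untreated arrays, they were SAFB, CASP2, GRIA2, CACNB2, GSPT1, PSD3, CHRM3 and CREBZF. SAFB, which ties RNA and chromatin to the nuclear matrix, read 7.63, 7.66 and 7.58 at 1 μM and 7.28, 7.22 and 7.28 at 0 μM, a log2 fold change of 0.37 ± 0.05. CASP2, an initiator caspase, read 7.06, 7.27 and 7.13 at 1 μM and 6.72, 6.92 and 6.63 at 0 μM, a log2 fold change of 0.40 ± 0.05. The groups of SAFB did not overlap, nor did those of CASP2, but the brightest probe set had 0.04 for SAFB and 0.00081 for CASP2.

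GRIA2, the AMPA receptor subunit that makes the channel impermeable to calcium, read 7.07, 7.05 and 6.72 at 1 μM and 6.72, 6.72 and 6.29 at 0 μM. The lowest array at 1 μM equalled the highest untreated ones, and each pair lay above 0, for a log2 fold change of 0.37 ± 0.05. CACNB2, an auxiliary subunit of voltage-gated calcium channels, read 7.66, 7.63 and 7.36 at 1 μM and 7.35, 7.27 and 7.00 at 0 μM, without overlap and with a log2 fold change of 0.34 ± 0.05. PSD3, an exchange factor for the small GTPase ARF6, had 0.31. CHRM3, the M3 muscarinic acetylcholine receptor, had 0.38, but its brightest probe set had -0.01. GSPT1, a translation termination factor, had 0.31 at 1 probe set and -0.003 at its brightest, and CREBZF, a leucine zipper protein, had 0.29 and 0.03 at its brightest.

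On the side below the untreated arrays, NANOS3 had the smallest p of all probe sets (4.39e-05 in limma before adjustment). This RNA-binding protein is known from germ cells, and its probe set was dim: 5.98, 5.89 and 5.92 at 1 μM and 6.31, 6.31 and 6.34 at 0 μM. The groups did not overlap and the log2 fold change was -0.39 ± 0.04. It was the 1 probe set called in any alternative fit, with an adjusted p of 0.0288 in limma when all 18 arrays were fitted together. PPP6R2, a regulatory subunit of protein phosphatase 6, had -0.34, with -0.02 at its brightest probe set and 0.11 at another. The noncoding transcript STX17-DT had -0.33, and LCN10, a lipocalin, had -0.31. CDH22, a cadherin, had -0.25. C5orf24 had -0.41 and -0.03 at its brightest probe set, with 0.30 at another and between -0.16 and -0.13 at the rest. C1orf21 had -0.25 at a dim probe set, against 0.14 at its brightest and 0.12 and 0.18 at the others. ARID1B, a subunit of the SWI/SNF chromatin remodeller, had -0.24, and 0.01 at its brightest probe set.

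**Figure D2:**
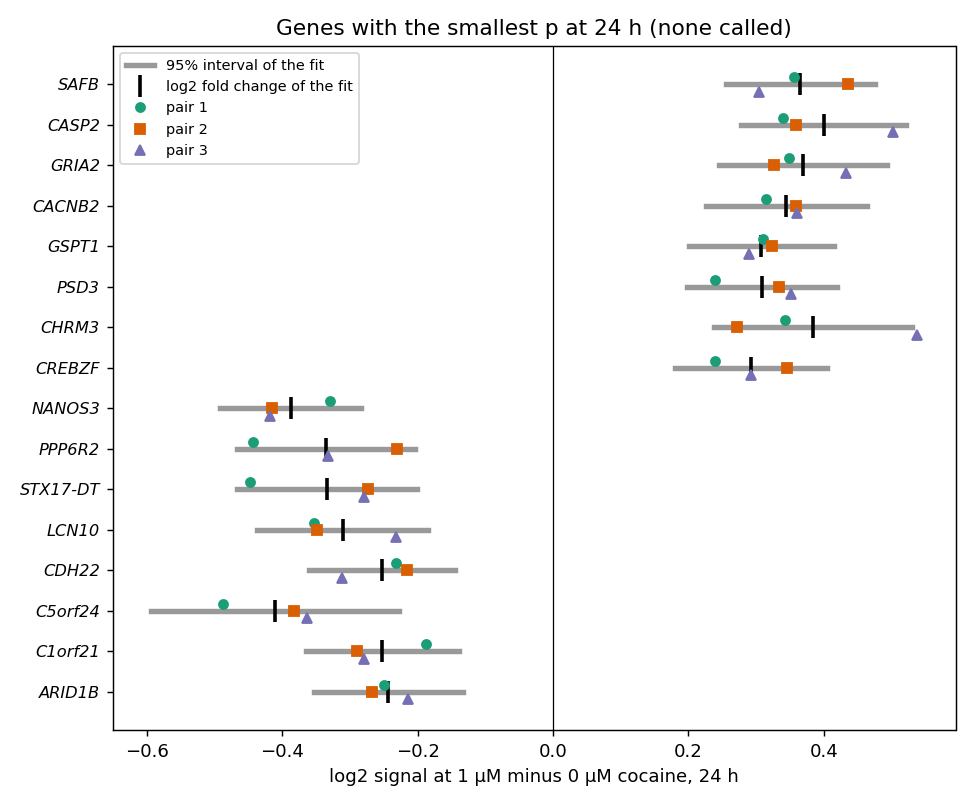
Log2 signal at 1 μM minus that at 0 μM (horizontal axis) for the 8 genes with the smallest p on either side, with 1 point per replicate pair, a black mark for the fitted log2 fold change and a grey bar for its 95% confidence interval. SAFB lies at 0.37 and NANOS3 at -0.39, and no gene passed an adjusted p under 0.10.

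Genes of the cell cycle lay slightly above the untreated level as a group. Of 60 genes of G1/S and DNA replication, 58 were measured, 56 of them had a log2 fold change above 0, and the median was 0.09. At an unadjusted p under 0.05, 12 were above (20.7%) and 0 below, where 3.72% of all genes were above. MCM10, which loads DNA polymerase at origins, read 10.16, 10.08 and 10.16 at 1 μM and 10.01, 9.85 and 9.77 at 0 μM. The groups did not overlap and the log2 fold change was 0.26. MCM5, a subunit of the replicative helicase, had 0.20, and POLA1, the catalytic subunit of polymerase alpha, had 0.18.

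Mitotic genes had a median of 0.09 over the 74 of 75 measured, with 66 above 0 and 17 above at an unadjusted p under 0.05 (23%). AURKA, a spindle kinase, read 9.59, 9.59 and 9.83 at 1 μM and 9.48, 9.45 and 9.59 at 0 μM, for a log2 fold change of 0.17. KIF18A, a kinesin that aligns chromosomes, had 0.17, and AURKB, the kinase of the chromosomal passenger complex, had 0.13. In both lists the third pair had the highest median, 0.22 for G1/S and 0.19 for mitosis, and the first pair had 0.01 and 0.03.

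Per array, the G1/S list stood at 0.05, -0.01 and 0.10 at 1 μM and at 0.05, -0.11 and -0.10 at 0 μM, and the mitotic list at -0.02, -0.01 and 0.18 at 1 μM and at -0.04, -0.07 and -0.02 at 0 μM. In G1/S the second and the third untreated arrays were the low ones, the same that were high for retinoic acid genes. Without the third untreated array, 2 G1/S genes and 1 mitotic gene were above at an unadjusted p under 0.05 and the medians were 0.04 and 0.04. Leaving out the third array at 1 μM also gave 2 and 2, the fit without the block 5 and 1, and median centring 5 and 2. Over all 6 arrays left out in turn the counts ran from 2 to 28 for G1/S and from 1 to 23 for mitosis, both highest without the first untreated array. At 6 h, 14 of 74 mitotic genes were called lower at 1 μM in limma with the block and 1 higher. Of all probe sets, 6.73% were called lower and 4.88% higher there, and none without the block.

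**Figure D3:**
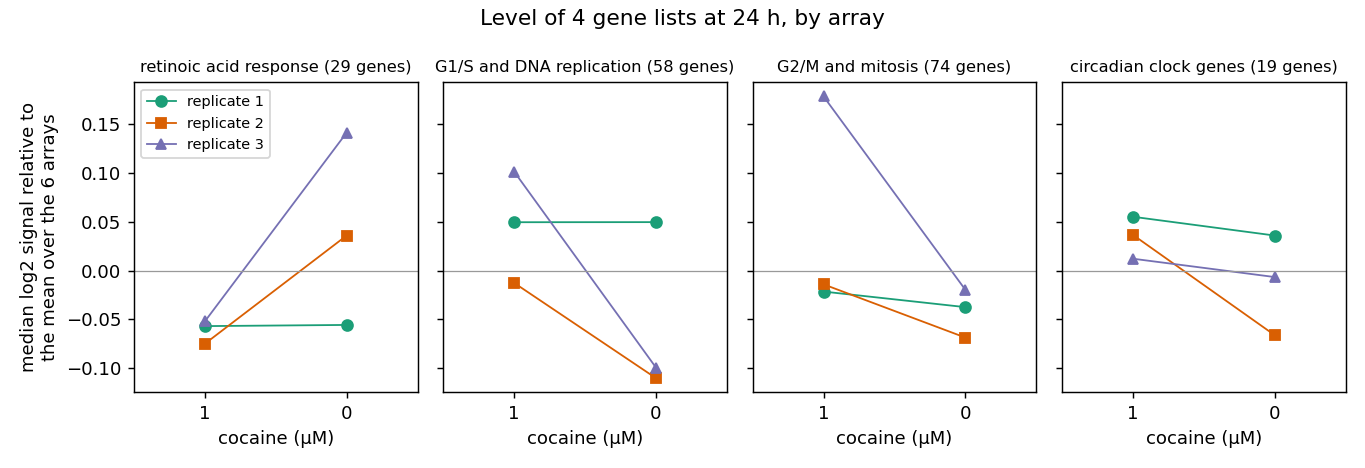
Median over the members of each list of the log2 signal centred on each gene's mean, a point per array of 24 h, 1 μM left of 0 μM. The third untreated array is highest for the retinoic acid list (0.14), and the G1/S list is lowest on the second (-0.11) and the third (-0.10) untreated arrays.

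The clock genes had similar medians in the 3 pairs, at 0.07, 0.10 and 0.09. The level of the list per array was less even. It stood at 0.055, 0.037 and 0.012 at 1 μM and at 0.036, -0.066 and -0.007 at 0 μM, lowest on the second untreated array. Of 24 genes 19 were measured, and 6 (31.6%) were above at an unadjusted p under 0.05, beside 3.72% of all genes. PER2, a repressor of the circadian feedback loop, read 6.73, 6.73 and 7.28 at 1 μM and 6.50, 6.32 and 6.78 at 0 μM. Each pair lay above 0, the third untreated array reached the range of the arrays at 1 μM, and the log2 fold change was 0.38 ± 0.08. PER2 was also called at 6 h, with a log2 fold change of 0.39 (adjusted p = 0.0437 in limma with the block). Of the 18 clock genes measured at 6 h, 1 was called higher and 3 lower, beside 4.88% and 6.73% of all probe sets. Their median at 6 h was 0.02, and without the block no probe set was called at that time. At 5 μM after 24 h the median of the clock list was 0.03. HLF, a clock output factor, had 0.26 against an untreated mean of 5.31, just below the signal minimum, which limits this value. RORA, a nuclear receptor that drives the clock, had 0.20, with -0.04 and -0.10 at its 2 other probe sets. The count of 6 was 2 without the third untreated array and 0 in the fit without the block. Of the 19 measured clock genes, 14 were above 0, and 11 were with median centring.

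For GREM1 and ID4, of the bone morphogenetic protein pathway, the untreated arrays spread more widely than those at 1 μM. GREM1, a secreted inhibitor of bone morphogenetic proteins, read 7.39, 7.42 and 7.54 at 1 μM and 7.44, 6.85 and 5.84 at 0 μM. The first untreated array matched the treated ones and the other two lay below them, for a log2 fold change of 0.74 ± 0.30, and of 0.45 without the third untreated array. ID4, a repressor of basic helix-loop-helix factors, read 9.74, 9.33 and 9.84 at 1 μM and 9.80, 8.89 and 8.95 at 0 μM, and its groups overlapped at a log2 fold change of 0.43, and of 0.23 without the third untreated array. The list of 33 measured BMP, TGF-beta and ID genes had a median of 0.04, with these 2 members above at an unadjusted p under 0.05; the count was 0 without the second or the third untreated array, without the third array at 1 μM, and without the block. In the Notch and Wnt list, LFNG, which modifies Notch receptors, had 0.18, while NKD1, an inhibitor of Wnt signalling, and LEF1, a Wnt effector, had -0.19 and -0.29.

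Among neuronal genes, differences went both ways, and the lists of vesicle, catecholamine, and potassium and calcium channel genes were centred near 0. The synaptic vesicle and granule list had a median of 0.00 over 46 genes. NPY, a neuropeptide co-released with noradrenaline, read 9.73, 9.43 and 8.90 at 1 μM and 9.64, 9.29 and 8.36 at 0 μM, with overlap and a log2 fold change of 0.26. PTPRN, a protein of granule membranes, had -0.18, and VGF, a granule peptide precursor, had -0.13. Catecholamine genes had a median of 0.00 over 16 genes and none at an unadjusted p under 0.05; DBH, which makes noradrenaline, had 0.13, and the D2 dopamine receptor DRD2 had -0.14. The 6 measured sodium channel genes had a median of 0.08, with 5 above 0, and SCN9A had 0.18. The split was 3 above and 3 below with median centring, without the first untreated array or without the first array at 1 μM. Without the block 0 of the sodium channel genes had an unadjusted p under 0.05. In the potassium and calcium channel list of 25 genes, KCNK1 had -0.14 beside CACNB2. KCNQ5 averaged 5.53 at 1 μM and 5.22 at 0 μM, the second below the signal minimum.

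Axon guidance genes (41 measured) had a median of 0.04. PLXNC1, a semaphorin receptor, read 5.92, 5.45 and 5.45 at 1 μM and 5.62, 5.16 and 5.04 at 0 μM, with overlapping groups and an untreated mean of 5.27, below the signal minimum, so its fitted 0.33 is not a measured fold. EFNB2, an ephrin ligand, had -0.23. In the list of neurites and the actin cytoskeleton 3 genes were above and 3 below at an unadjusted p under 0.05 out of 61, and 1 and 1 without the block, beside 3.72% and 2.69% of all genes: DIAPH2, a formin, had 0.31, TPM4, a tropomyosin, -0.27, and the tubulin TUBB2A -0.13. The adhesion list had 6 of 48 above (12.5%) and 0 below, beside 3.72% and 2.69% of all genes. The count above was 1 without the third untreated array, 2 without the second array at 1 μM, and 0 without the third array at 1 μM or without the block. PARVA, an adaptor of integrin adhesions, had 0.18 and the integrin ITGA9 had 0.19. The laminin LAMA1, also counted, averaged 5.42 at 1 μM and 5.11 at 0 μM, the second below the signal minimum. ITGA9 had -0.10 at its other probe set. The 14 measured markers of the substrate-adherent state had a median of 0.01, with 8 above 0 and 6 below. The highest were VIM and CD44, at 0.29 and 0.30, and for VIM the third untreated array was the low one, with 12.99, 12.99 and 12.95 at 1 μM and 12.94, 12.86 and 12.26 at 0 μM.

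Genes that respond to neuronal activity showed no common direction. Of 32 immediate early genes 21 were measured, with a median of 0.01, 2 above and 2 below at an unadjusted p under 0.05. Of all genes 3.72% were above and 2.69% below. The counts for the list were 1 and 0 without the block, without the second untreated array or without the third. FOS read 7.63, 7.26 and 7.60 at 1 μM and 7.53, 7.73 and 8.34 at 0 μM, a log2 fold change of -0.37 with overlap. MYC, a growth-linked factor, read 8.52, 8.41 and 8.45 at 1 μM and 8.41, 8.18 and 8.17 at 0 μM, which did not overlap, at a log2 fold change of 0.21. NR4A3, an orphan nuclear receptor, had -0.22. The list of CREB and cAMP signalling, with 35 genes measured, had a median of 0.01. In it the kinase CAMK4 had 0.17, the factor CREM -0.20 and the adenosine A1 receptor ADORA1 -0.36. The pairs of ADORA1 differed by 0.10, -0.60 and -0.58. The separate neuregulin and ErbB list had a median of 0.02 over 28 genes. At an unadjusted p under 0.05, 3 were above (10.7%) and 0 below, beside 3.72% and 2.69% of all genes. The count above was 0 without the block or without the third untreated array. In this list PRKCE, a protein kinase C, had 0.18 and the receptor ERBB2 0.16.

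Chromatin and RNA-processing genes were close to the untreated level. Of 84 measured chromatin modifiers 6 were above and 1 below at an unadjusted p under 0.05, with a median of 0.03, beside 3.72% and 2.69% of all genes. The counts were 1 and 1 without the block or without the third array at 1 μM, and 2 and 0 without the third untreated array; median centring gave 1 and 1 and a median of -0.01. The histone demethylase KDM6A had 0.15 and its relative KDM6B -0.23. TET2, which oxidises methylcytosine, had 0.14 at its brightest probe set and -0.49 at a dimmer one. Splicing genes had a median of 0.03 over 86 genes, with SNRNP70, a U1 particle protein, at 0.14. MALAT1, a nuclear noncoding RNA measured by 12 probe sets, had values from -0.48 to -0.05, and -0.08 at the brightest.

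Housekeeping groups were centred near 0. None of 52 cytosolic ribosomal protein genes, 69 nuclear respiratory chain genes or 35 proteasome genes had an unadjusted p under 0.05, and the medians were -0.003, 0.003 and 0.013. The 7 mitochondrially encoded transcripts had a median of -0.06, with COX3, a subunit of cytochrome oxidase, at -0.29 and ND6, a subunit of complex I, at -0.15. GAPDH had 0.00 and HPRT1 0.09.

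**Figure D4:**
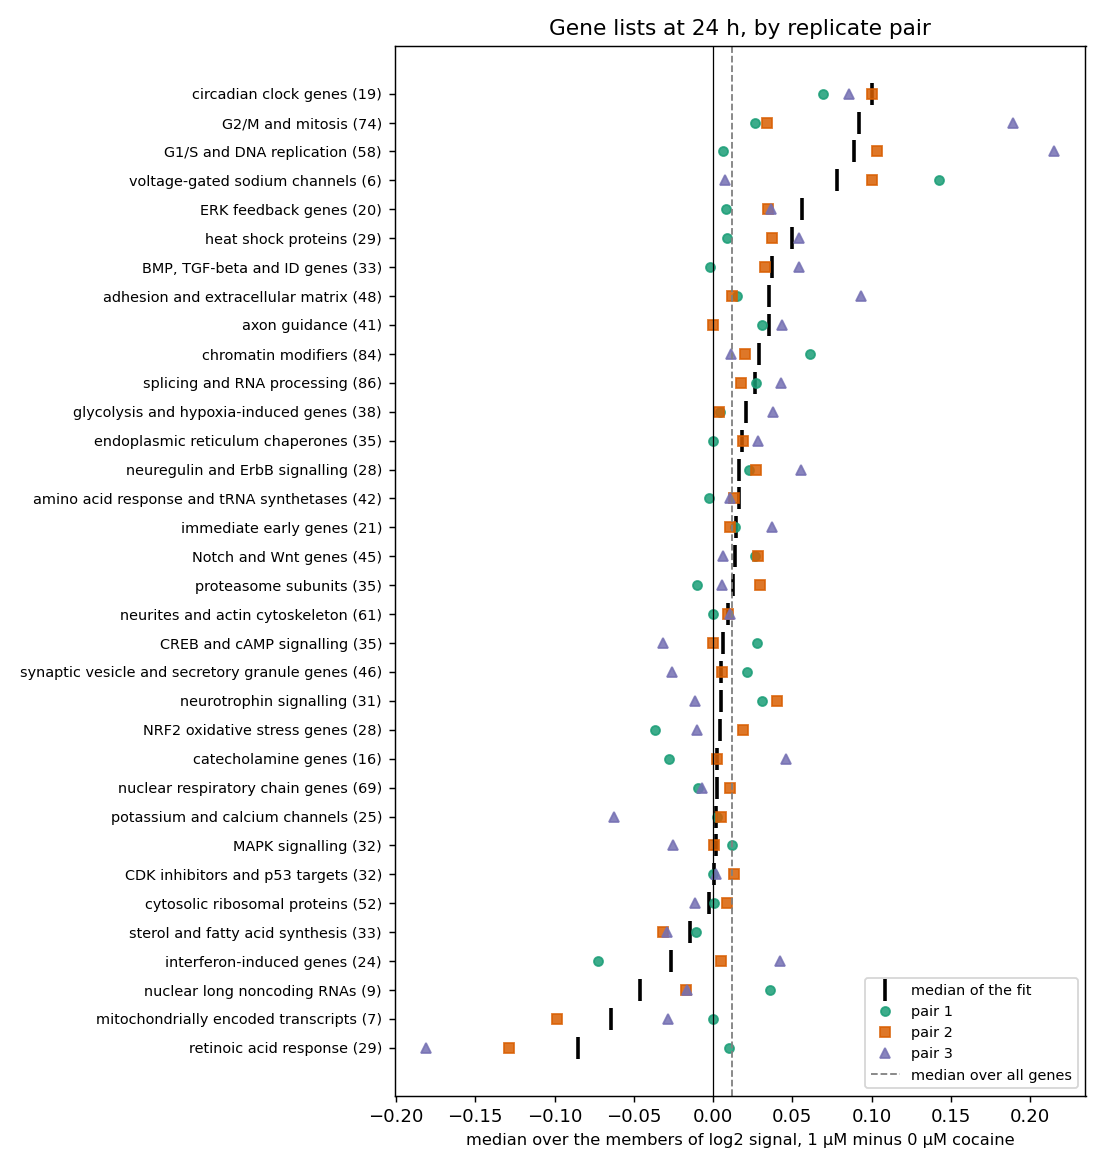
Median log2 fold change (1 μM minus 0 μM, 24 h) over the measured members of each pathway list (cell type marker lists are not drawn), as a black mark, with the median of each replicate pair as points and the median over all genes as a dashed line. Of the lists drawn, the retinoic acid list is lowest at -0.09, and the clock, mitotic and G1/S lists are highest at 0.10, 0.09 and 0.09.

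The genes that the study followed by quantitative PCR were chosen on the 6 h arrays and are no independent list here. None of the 7 had an unadjusted p under 0.05 at 24 h. ENC1, an actin-binding protein, had 0.08, NFAT5, the osmotic stress factor, 0.08, ELF1, an ETS factor, 0.05, PPP1R9A, a neuronal scaffold of protein phosphatase 1, 0.10 and NRG1, an ErbB ligand, 0.09. The RNA-binding protein IGF2BP3 had -0.02 and the semaphorin SEMA6D -0.03. Except for ENC1 and ELF1, the sign of these values turned when 1 array was left out.

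Differences called at 6 h were near 0 at 24 h. With the block, limma called 1217 of 24930 probe sets higher (4.88%) and 1677 lower (6.73%) at 1 μM 6 h after the exposure. Of the 1217, 1207 were above the signal minimum at 24 h and 0 were called there, and their median log2 fold change was 0.02 at 24 h against 0.27 at 6 h. The difference was smaller in size at 24 h for 98.6% of them. Of the 1677, 1673 were measured, 0 were called, the median was 0.01 at 24 h against -0.25 at 6 h, and 99.1% were smaller in size. At 24 h, 57 of the 1207 were above at an unadjusted p under 0.05 (4.72%), beside 5.73% of all probe sets. Of the 1673, 43 were below (2.57%), beside 2.67% of all. Because these probe sets were chosen for their difference at 6 h, the smaller size at 24 h is a description, with no test.

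The 6 h calls rested on the pairing and on single arrays. Without the block limma called 0 probe sets at 6 h, with 3498 at an unadjusted p under 0.05. With the block, leaving out the second untreated array or any 1 array at 1 μM gave 0, leaving out the third untreated array gave 35 higher and 22 lower, and leaving out the first gave 2640 and 2345. The log2 signal of the hybridisation control bioD minus that of cre overlapped between the doses at 24 h, at -1.21, -1.16 and -1.13 at 1 μM and -1.28, -1.19 and -1.17 at 0 μM. At 6 h it separated them, at -1.53, -1.54 and -1.52 at 1 μM and -1.11, -1.06 and -1.02 at 0 μM. The log2 ratio of 3' to 5' GAPDH probe sets also separated them at 6 h. It was 0.154, 0.170 and 0.172 at 1 μM and 0.255, 0.215 and 0.226 at 0 μM. So did the median log2 signal, at 5.007, 4.984 and 4.991 at 1 μM and 4.968, 4.963 and 4.976 at 0 μM. The ACTB ratio, bioB and bioC overlapped at 6 h. The part of these measures in the 6 h calls was not tested.

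The 8 largest increases of 6 h were smaller in size at 24 h, on either side of 0. LMO7, a protein of cell junctions, read 6.26, 6.33 and 6.50 at 1 μM and 6.26, 6.19 and 6.07 at 0 μM at 24 h, a log2 fold change of 0.19. At 6 h it had read 6.44, 6.31 and 5.78 at 1 μM and 5.31, 5.27 and 4.66 at 0 μM, a fitted log2 fold change of 1.10 against untreated arrays that all lay below the signal minimum. HSP90B1, which folds secreted and membrane proteins, had -0.15 at 24 h and 0.81 at 6 h at the same probe set. WASL, which starts actin branching, had a log2 fold change of -0.36 at 24 h, where 9.38, 9.23 and 9.22 at 1 μM lay below 9.55, 9.68 and 9.67 at 0 μM, and of 0.76 at 6 h. Its brightest probe set had 0.04 at 24 h. The other large increases of 6 h, DEPDC1, SMCHD1, GAREM1, DDX17 and a second probe set of ELF1, lay between -0.15 and 0.19 at 24 h, with DEPDC1 at 0.19 and above 0 in all 3 pairs.

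The 8 largest decreases of 6 h kept their sign at 24 h. Of all 1673 probe sets lower at 6 h, 44.5% were below 0 at 24 h, beside 41% of all probe sets. Among the 8 genes, the first replicate pair of 24 h lay above 0 for CYP26B1, CLMN, LRRTM1 and MINDY2. CYP26B1 had -1.01 at 24 h and -2.49 at 6 h, and RARB -0.41 at 24 h and -1.38 at 6 h. CLMN, a membrane protein that retinoic acid induces in mouse neuroblastoma cells, read 8.33, 8.60 and 9.08 at 1 μM and 8.14, 8.97 and 9.95 at 0 μM at 24 h, a log2 fold change of -0.35. At 6 h it had read 7.05, 7.05 and 7.36 at 1 μM and 7.16, 9.85 and 9.97 at 0 μM. The first untreated array was below or within the treated range at both times. CNGA1, a cyclic nucleotide-gated channel, had -0.35 at 24 h and -1.05 at 6 h, and PRKCH, a protein kinase C, -0.26 at 24 h and -1.08 at 6 h. ELFN1, LRRTM1 and MINDY2 lay between -0.38 and -0.16 at 24 h.

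**Figure D5:**
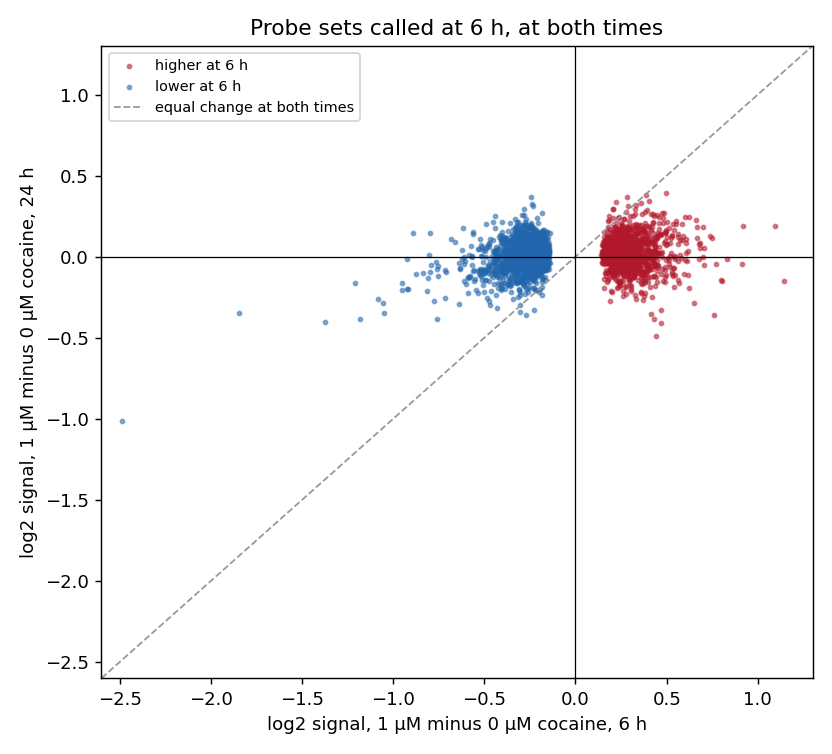
Log2 fold change at 1 μM against 0 μM at 24 h (vertical axis) against that at 6 h (horizontal axis) for probe sets called at 6 h, 1 point each, with a dashed line where both would be equal. The 1207 probe sets higher at 6 h centre on 0.02 at 24 h and the 1673 lower ones on 0.01.

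The change between times was tested as the difference of the 2 dose contrasts over all 18 arrays. Of 24805 probe sets measured at both times, 1086 passed an adjusted p under 0.10 in limma with the block (4.38%), 747 with a more positive and 339 with a more negative log2 fold change at 24 h. Among the probe sets called at 6 h, 288 of the 1207 higher ones (23.9%) and 552 of the 1673 lower ones (33%) passed, a description only because the 6 h contrast chose them. Without the block 0 and 1 probe sets passed, so the difference between the times rests on the pairing as the 6 h calls do.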

How the data were processed

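RNA of differentiated SH-SY5Y cells was measured on Affymetrix U133 Plus 2.0 arrays. The authors deposited log2 signals from RMA, which corrects background, normalizes and summarizes probes by median polish. They ran it once per time, and replicates were kept apart. Versions of RMA and limma upstream are not given in the sources used here. Signals were therefore compared within a time, and the times only as dose differences. The 5 μM arrays also carry the words for untreated controls in their labels, and the dose they state was used. The number of arrays limits the precision.

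Probe sets with a mean over the 9 arrays of 24 h above log2(40) were kept, and 33 control probe sets above it were left out. The comparison of 1 with 0 μM was fitted with limma 3.58.1 in R 4.3.3 (lmFit, eBayes) on the 9 arrays, with the replicate number as a block and Benjamini-Hochberg adjustment over all probe sets kept. The study's methods name no block, and the fit without it is given beside. Replicate numbers come from the sample titles. Same-numbered arrays of different doses correlated in their deviations from group means at 0.361 to 0.727 (9 pairs) and differently numbered ones at -0.578 to 0.188 (18 pairs), so the numbers were taken to pair the arrays. What same-numbered arrays share is not given in the sources used here. The threshold was an adjusted p under 0.10, as in the methods. Each listed gene was taken at its brightest probe set. Symbols came from the array annotation and RefSeq of GRCh38.p14 (41043 of 41097 probe sets with 1 symbol matched). The scripts were tested on simulated data. The R package data.table (version 1.17.8) read the values, and matplotlib 3.10.9 in Python 3.11.15 drew the plots.

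The members and gene lists were chosen with earlier results of these data known. Named genes are the 8 per direction with the smallest p among probe sets with 1 symbol and the same sign in all pairs, up to 3 members per list with the smallest p, CYP26A1, CYP26B1, DHRS3, RARB, RET, the genes the study followed by PCR, TH, MALAT1, GAPDH and HPRT1, and the 8 largest increases and 8 largest decreases called at 6 h. GATA3, ISL1, CRABP2, RARA and RARG were chosen after their values were seen, as were the absent markers named. Alternatives were the fit without the block, other sets of arrays, other signal filters, an intensity trend, array weights, quantile normalization, median centring, an adjusted p under 0.05, the brightest probe set or the mean per gene, and leaving out each array or replicate number. List counts at an unadjusted p with an array left out or without the block were added after seeing the data.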

Additional observations from a re-analysis of the deposited data

Results flagged for a closer look

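The dose difference at 1 μM was unlike at 24 and 6 h for 1086 probe sets, by a test of the difference itself in limma at an adjusted p under 0.10 with the replicate block. Without the block 0 more positive and 1 more negative difference passed. Genes with the smallest p at 24 h were chosen on one of the contrasts compared, so their presence here is no independent support.

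Among those genes, the log2 fold change at 24 h minus that at 6 h was 0.52 for SAFB, 0.29 for CASP2, 0.49 for GSPT1 and 0.34 for CREBZF. It was -0.52 for NANOS3, -0.31 for PPP6R2, -0.60 for STX17-DT, -0.37 for CDH22, -0.88 for C5orf24 and -0.29 for ARID1B.

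Of list members, the difference was -0.41 for NR4A3, 0.24 for TET2, 0.40 for KDM6A, 0.39 for PARVA and 0.35 for ITGA9. The mitotic genes AURKA and KIF18A had 0.25 and 0.51, with log2 fold changes of 0.17 and 0.17 at 24 h.

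Of genes with the largest increase at 6 h, chosen on the 6 h contrast, it was -0.90 for LMO7, -0.73 for DEPDC1, -0.96 for SMCHD1, -0.95 for HSP90B1, -0.81 for ELF1 and -1.12 for WASL. MINDY2, one of the largest decreases at 6 h, had 0.79. CYP26B1 and RARB did not pass, at 1.48 and 0.97 with standard errors of 0.97 and 0.41.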

How the results depend on the processing

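No probe set was called at 24 h under any alternative except the fit of all 18 arrays, which called 1 lower. Because no call existed to lose, this says little about stability. At an unadjusted p under 0.05, leaving out an array or a replicate number gave 529 to 2466 probe sets above and 290 to 1436 below. Quantile normalization gave 1004 and 1053, array weights 3178 and 1593, and the replicate block's removal 542 and 396. No signal filter gave 1867 and 1837, a minimum of log2(100) 1330 and 328, and 1 probe set per gene 606 and 422. The 6 h calls (1217 higher, 1677 lower) were 0 and 0 without the replicate block, 223 and 231 at an adjusted p under 0.05, and 0 to 2640 and 0 to 2345 with an array left out. Differences between times (747 and 339) were 0 and 1 without the replicate block, 317 and 567 with median centring, 57 and 42 at an adjusted p under 0.05, and 0 to 727 and 1 to 466 with an array left out. With 1 array of a dose and time left out, both counts were lower by over 1.5 times for each array except the first untreated array of either time.

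The clock median of 0.10 was 0.0798 with quantile normalization, 0.0659 with median centring, 0.0811 as the mean over probe sets, and 0.0512 to 0.142 with an array left out. The brightest probe set turned the sign for GSPT1 (-0.0032), CHRM3 (-0.0094), C1orf21 (0.14), ARID1B (0.0060), SMCHD1 (0.11), GAREM1 (0.10), DDX17 (0.0225), the ELF1 probe set of the 6 h calls (0.0460) and WASL (0.0418), and array weights for NFAT5 (-0.0138). With an array or replicate number left out, values ran from -0.00785 to 0.199 for PPP1R9A, -0.0257 to 0.256 for NRG1, -0.110 to 0.181 for NFAT5, -0.0640 to 0.0124 for IGF2BP3, -0.0976 to 0.0222 for SEMA6D, -0.259 to 0.0333 for MALAT1, -0.00755 to 0.00106 for GAPDH, -0.157 to 0.0979 for SMCHD1, -0.0687 to 0.0640 for GAREM1, -0.323 to 0.0845 for DDX17 and -0.199 to 0.0469 for that ELF1 probe set. CYP26A1 ran from -2.39 to -0.50, CYP26B1 from -1.57 to -0.25, GREM1 from 0.26 to 1.14 and ID4 from 0.19 to 0.67. The causes were not tested. Of 1895 values of named genes under alternatives, 1859 kept sign and side of the threshold, and NANOS3 alone passed it. A probe set near the signal minimum is limited by background.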
